A study of Mus musculus with 6 samples.

Results

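The genes for the receptors that bind the Fc portion of antibodies were followed in cultured mouse macrophages lacking c-Maf. The set held 9 genes, chosen by name: Fcgr1, Fcgr2b, Fcgr3 and Fcgr4 (the Fc gamma receptors), Fcer1g (the common gamma chain), Fcgrt (the neonatal Fc receptor), Fcer2a (CD23), and the Fc receptor-like genes Fcrls and Fcrlb. Each was represented by 1 non-control probe, so 9 of 55681 non-control probes on the array belonged to the set and no gene offered a second probe to compare. Of these, 7 were among the 28273 probes well above background on at least 2 of the 5 scanned arrays; the probes of Fcer2a and Fcrlb were not.

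The samples were 3 c-Maf KO cultures and 3 WT cultures. Both were M-CSF-cultured macrophages, named polarized M2-like BMM in the labels and grown from fetal liver chimeric mice of either genotype, in medium with 10% fetal bovine serum and 10 ng/ml M-CSF, which was added again daily from day 4. M-CSF is the growth factor of the macrophage lineage, and the labels name no other cytokine. RNA was hybridised to 1-colour Agilent arrays. The labels give neither mouse age, strain, the deleted stretch of Maf nor the share of host cells left in a chimera, and do not say whether replicates came from separate mice, so the spread behind the p-values is that of these samples and may be technical. Scanner files of 5 arrays were used (c-Maf KO replicates 2 and 3, and all WT replicates); c-Maf KO replicate 1 was read from the deposited value table alone, and its scanner file was not analysed here. On the slide, c-Maf KO RNA was in row 2 and WT RNA in row 1, which means that the effects of row and genotype cannot be told apart.

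Fc receptors let macrophages take up antibody-coated particles and immune complexes. Activating receptors pair with the common gamma chain, whose cytoplasmic tyrosine motif recruits the kinase Syk after phosphorylation by Src-family kinases, while Fcgr2b carries an inhibitory motif that recruits the phosphatase encoded by Inpp5d. Fcgr1 binds monomeric IgG with high affinity, Fcgr3 and Fcgr4 bind IgG in complexes, and Fcgrt works differently, pairing with beta-2 microglobulin inside endosomes and returning IgG to the cell surface.

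Before the values, the probes of the 4 Fc gamma receptors and of Fcgrt and Fcrls are shown, since each gene rests on a single 60-base probe. The stretch printed is bases 16 to 45 of each, 5′ to 3′ as on the array, in lower case throughout. The probes lie at chr3:96086839-96086898 (Fcgr1), chr1:172984129-172984188 (Fcgr3), chr1:172959738-172959797 (Fcgr4), chr1:172890988-172891047 (Fcgr2b), chr7:52350556-52350615 (Fcgrt) and chr3:87056422-87056481 (Fcrls) in the mm9 coordinates of the files; Fcgr4 is on the plus strand and the other 5 on the minus strand.
Fcgr1 probe: atgcagacacagacatatgaacaagaacaa
Fcgr3 probe: ctctatcccaaaagccaaccacagtcacag
Fcgr4 probe: tcagaattttacactttctctgccccaaac
Fcgr2b probe: gaaaccaacagacactacgagattggttcc
Fcgrt probe: tggagatgagcaccattatcaatgtcaagt
Fcrls probe: ctcattcaggtagccctgtgcaatggcaca
The longest run of bases shared by any pair of the 9 probes was 8, and no other probe on the array shared a run of 20 bases with any of them. The extracellular parts of Fcgr2b and Fcgr3 are known to be nearly identical, and binding of one transcript by the other's probe was not tested.

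Maf, the targeted gene, was low in every library labelled c-Maf KO. In log2 ratio to the probe's median over the 6 samples, its brighter probe (chr8:118227736-118227795, mm9) read -2.22, -2.36 and -1.92 in c-Maf KO replicates 1, 2 and 3, against 1.92, 1.98 and 2.03 in WT replicates 1, 2 and 3. That is a difference of -4.14 (adjusted p = 0.000826, limma, 6 samples). The second Maf probe was not well above background on either scanned c-Maf KO array and was well above it on all 3 WT arrays. It was thus kept through the WT arrays alone. Its difference was -4.34, which narrowly missed the cut of 0.05 (adjusted p = 0.0522, limma, 6 samples). With the 5 scanned arrays alone it passed, with a difference of -4.74 (adjusted p = 0.00115, limma).

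Of the detected receptor genes, 0 of 7 passed the test (limma on the log2 ratios of the 6 samples, Benjamini-Hochberg adjusted p under 0.05 over all 28273 probes). Over all probes, 0.0212% passed. In 3 of the 7, Fcrls, Fcgr1 and Fcgrt, every c-Maf KO sample lay below every WT sample, whereas in 0 of 7 did every c-Maf KO sample lie above. Among all kept probes, the groups did not overlap in 19.4%, with c-Maf KO lower in 9.26% and higher in 10.2%. The same 3 genes had an unadjusted p under 0.05, as did 12.1% of all kept probes. With the 5 scanned arrays alone, 0 of 7 passed as well, against 0.0248% of all probes, and 3 of 7 had an unadjusted p under 0.05, against 10.5%. These are bulk cultures, in which fewer cells of a type and less RNA per cell cannot be told apart.

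**Figure D1:**
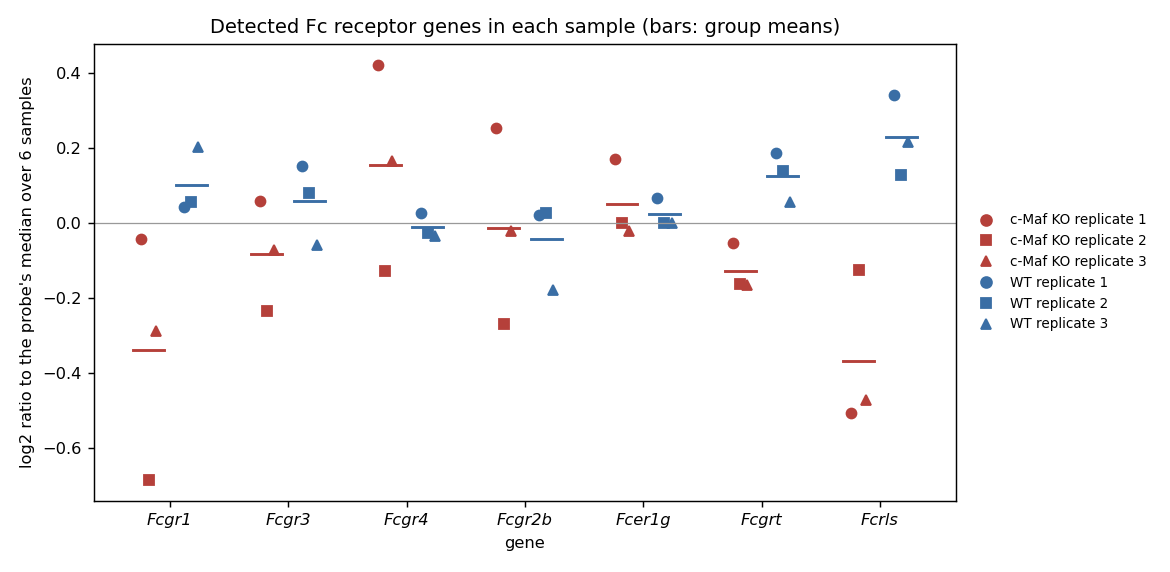
Log2 ratio to the probe's median over 6 samples (vertical axis) for the 7 detected genes (horizontal axis), with c-Maf KO samples in red left of WT samples in blue; shapes mark the replicate and horizontal bars the group means. The groups are apart for Fcgr1, Fcgrt and Fcrls, and overlap for Fcgr3, Fcgr4, Fcgr2b and Fcer1g.

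Fcrls, an Fc receptor-like gene known as a marker of microglia, showed the lowest difference of the set with 6 samples, whereas without c-Maf KO replicate 1 that of Fcgr1 was lower (-0.59, against -0.53 for Fcrls). Its log2 ratios were -0.51, -0.13 and -0.47 in c-Maf KO replicates 1, 2 and 3, against 0.34, 0.13 and 0.22 in WT replicates 1, 2 and 3. Replicate 2 was the highest of the c-Maf KO samples and also the lowest of the WT samples, and a gap of 0.25 separated those 2 samples. The group means were -0.37 ± 0.21 in c-Maf KO and 0.23 ± 0.11 in WT (SD, n = 3 each). The difference was -0.60 (SE 0.12, 95% interval -0.90 to -0.30), or 0.661 times the WT level, with an adjusted p of 0.208 (limma). Of all kept probes, 1.35% had a difference as low or lower. On the linear scale and before scaling between arrays, the probe's processed intensity was 3518 and 3183 on the c-Maf KO arrays, against 4730, 4007 and 4579 on the WT arrays.

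Fcgr1, the high-affinity activating receptor for IgG, was the other gene with a difference beyond -0.4. Its log2 ratios were -0.04, -0.69 and -0.29 in c-Maf KO replicates 1, 2 and 3, against 0.04, 0.06 and 0.20 in WT replicates 1, 2 and 3. c-Maf KO replicate 1 came within 0.086 of the nearest WT sample, and c-Maf KO replicate 2 was the lowest of all 6. The means were -0.34 ± 0.32 in c-Maf KO and 0.10 ± 0.088 in WT (SD, n = 3 each). A difference of -0.44 followed (SE 0.17, 95% interval -0.85 to -0.031, adjusted p = 0.388, limma), or 0.738 times WT, and 3.33% of kept probes lay as low or lower. Its size moved with the c-Maf KO sample left out: without c-Maf KO replicate 2 it was -0.27, and without c-Maf KO replicate 1 it was -0.59. Processed intensities before scaling between arrays were 517 and 783 on the c-Maf KO arrays, against 833, 825 and 980 on the WT arrays.

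Fcgrt, the recycling receptor for IgG and albumin, had a smaller but tighter difference. It read -0.05, -0.16 and -0.17 in c-Maf KO replicates 1, 2 and 3, against 0.19, 0.14 and 0.05 in WT replicates 1, 2 and 3. All c-Maf KO samples lay below the probe's median and all WT samples above it, with a gap of 0.11 between the groups. The means were -0.13 ± 0.064 in c-Maf KO and 0.13 ± 0.067 in WT (SD, n = 3 each), giving a difference of -0.25 (SE 0.068, 95% interval -0.42 to -0.087, adjusted p = 0.275, limma), or 0.839 times WT. As 10.6% of kept probes had a difference as low or lower, its size was not unusual among all probes. B2m, which encodes the light chain that Fcgrt needs, differed by 0.077 (adjusted p = 0.696, limma), with overlapping groups.

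The activating receptors that bind IgG in complexes overlapped between the genotypes. Fcgr3 read 0.06, -0.23 and -0.07 in c-Maf KO replicates 1, 2 and 3, against 0.15, 0.08 and -0.06 in WT replicates 1, 2 and 3, a difference of -0.14 (SE 0.10, 95% interval -0.39 to 0.11, adjusted p = 0.606, limma). Without c-Maf KO replicate 2 it was -0.064, and without c-Maf KO replicate 1 it was -0.21. Fcgr4 read 0.42, -0.13 and 0.17 in the c-Maf KO replicates, against 0.03, -0.03 and -0.03 in the WT replicates. The 3 WT samples of Fcgr4 lay within 0.060 of each other while the c-Maf KO samples spanned 0.55, above and below them. The Fcgr4 difference was 0.16 (SE 0.14, 95% interval -0.18 to 0.51, adjusted p = 0.662, limma), with 0.031 without c-Maf KO replicate 1 and 0.30 without c-Maf KO replicate 2.

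Fcgr2b, the inhibitory receptor, read 0.25, -0.27 and -0.02 in c-Maf KO replicates 1, 2 and 3, against 0.02, 0.03 and -0.18 in WT replicates 1, 2 and 3. Its difference was 0.031 (SE 0.14, 95% interval -0.32 to 0.39, adjusted p = 0.947, limma), and it was of opposite sign without c-Maf KO replicate 1 (-0.10) and without WT replicate 3 (-0.036). The Fcgr2b probe is printed 10 times on each array, of which 9 or 10 spots were used, and so shows how far spots of 1 array differ. Relative to the 75th percentile of the array and in log2, the spots averaged 3.38 ± 0.044 and 3.65 ± 0.068 on c-Maf KO arrays 2 and 3, against 3.69 ± 0.049, 3.70 ± 0.045 and 3.47 ± 0.044 on WT arrays 1, 2 and 3 (SD over spots). The SD over spots covers the noise within 1 array and leaves out labelling, hybridisation and culture. The remaining detected receptor genes had 1 spot each, and no such check could be made for them.

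Fcer1g, the shared signalling chain of the activating receptors, had the difference closest to 0 with 6 samples, whereas with the 5 scanned arrays Fcgr4 was closer. Its log2 ratios were 0.17, -0.0007 and -0.02 in c-Maf KO replicates 1, 2 and 3, against 0.07, -0.0003 and 0.0003 in WT replicates 1, 2 and 3. The difference was 0.027 (SE 0.074, 95% interval -0.16 to 0.21, adjusted p = 0.907, limma), an interval that leaves out a change as large as the one measured for Fcrls. Without c-Maf KO replicate 1 the sign turned (-0.033). Before scaling between arrays, the probe's intensity was 84868 and 96224 on the c-Maf KO arrays, against 86574, 81091 and 87151 on the WT arrays. The array of c-Maf KO replicate 3 was the brightest as a whole (75th percentile 495), so these intensities do not rank the samples as the log2 ratios do. No array flagged the probe as saturated.

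Both genes left out of the test gave signals near background. Fcer2a, the low-affinity IgE receptor best known from B cells, was well above background on 0 of 2 c-Maf KO arrays and 1 of 3 WT arrays. Fcrlb, an Fc receptor-like gene of B cells, was well above background on 0 of 2 c-Maf KO arrays and 0 of 3 WT arrays. Their log2 ratios ran from -0.18 to 0.28 in c-Maf KO and from -0.96 to 0.73 in WT for Fcer2a, and from -0.01 to 0.31 in c-Maf KO and from -0.49 to 0.06 in WT for Fcrlb. No fold is given for either, since these signals have no settled order.

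**Figure D2:**
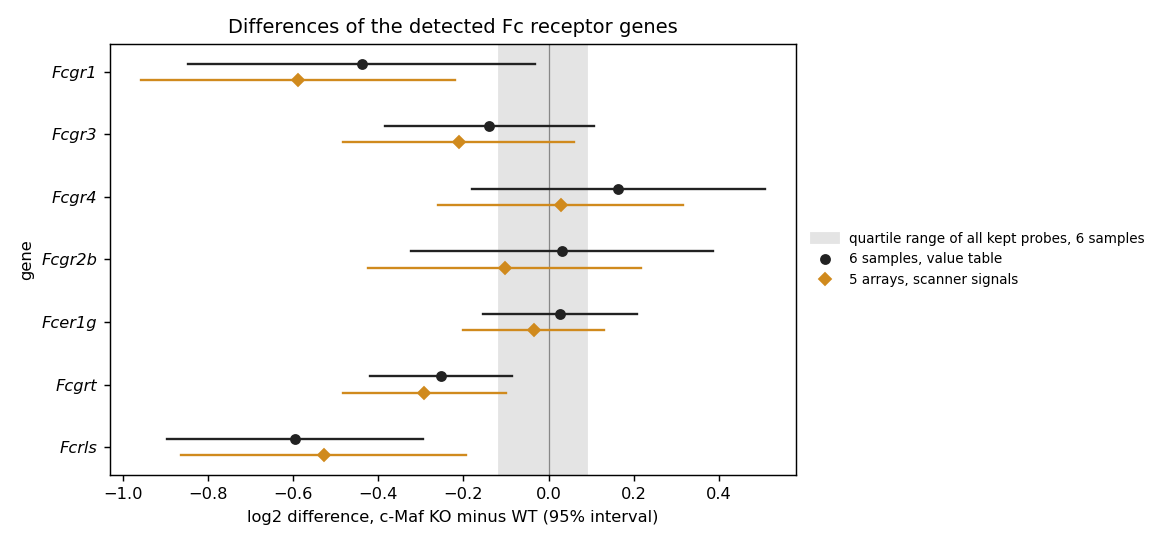
Log2 difference, c-Maf KO minus WT, with its 95% interval (horizontal axis) for the 7 detected genes (vertical axis); black circles are the 6 samples of the value table, orange diamonds the 5 scanned arrays, and the grey band spans the lower to the upper quartile of all kept probes in the 6 samples (-0.12 to 0.090). The intervals of Fcgr1, Fcgrt and Fcrls lie below 0 in both fits, before adjustment over all probes.

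The 5 scanned arrays share all their hybridisations with the value table and add no independent evidence; they show what the absence of c-Maf KO replicate 1 does. The differences of Fcrls, Fcgr1 and Fcgrt were -0.53, -0.59 and -0.29 there (adjusted p = 0.367, 0.366 and 0.378, limma). Fcgr3 differed by -0.21, Fcgr2b by -0.10, Fcer1g by -0.035 and Fcgr4 by 0.029. The signs of Fcgr2b and Fcer1g were thus opposite in the 2 fits. Over the 7 genes the median difference was -0.14 with 6 samples, against -0.0038 over all kept probes, and -0.21 with 5 arrays, against -0.014 over all kept probes. A difference below 0 was found for 4 of 7 genes with 6 samples (50.9% of all kept probes) and for 6 of 7 with 5 arrays (53.9%).

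The c-Maf KO samples were also unlike each other. c-Maf KO replicate 1 was the highest of the 6 samples for 3 genes (Fcgr2b, Fcgr4 and Fcer1g), whereas c-Maf KO replicate 2 was the lowest of the 6 for 4 genes. The mean log2 ratio of the 7 genes was 0.043, -0.23 and -0.13 in c-Maf KO replicates 1, 2 and 3, against 0.12, 0.057 and 0.028 in WT replicates 1, 2 and 3. Fcrls ran the other way, with c-Maf KO replicate 2 nearest to WT.

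**Figure D3:**
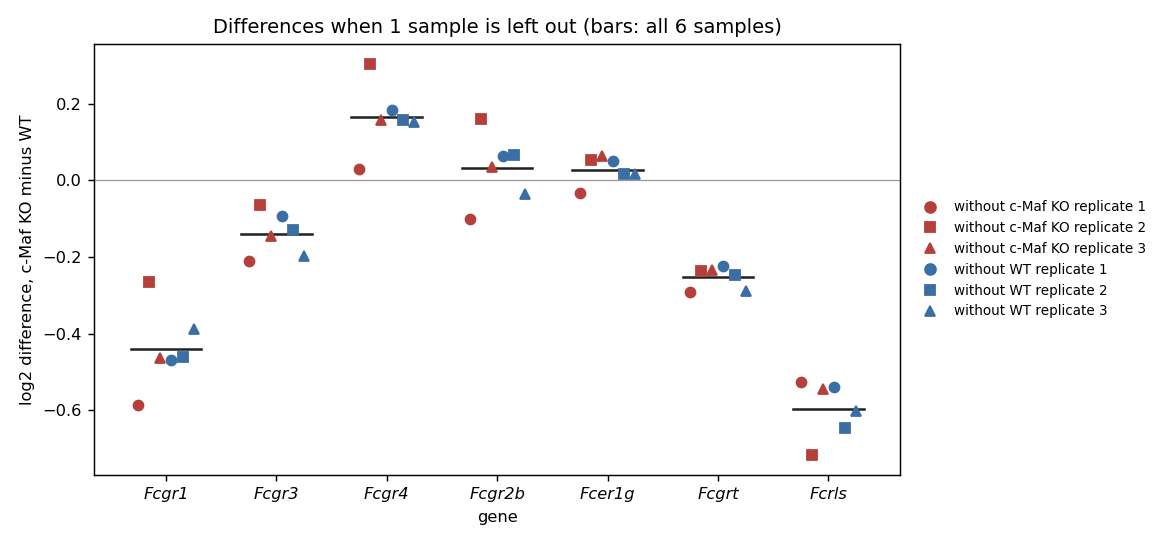
Log2 difference, c-Maf KO minus WT, over the samples of the value table with 1 sample left out (vertical axis) for the 7 detected genes (horizontal axis); colour and shape name the sample left out (c-Maf KO in red, WT in blue) and the black bar is the value with all 6. Fcgr1 moved between -0.59 and -0.27, Fcrls stayed between -0.72 and -0.53 and Fcgrt between -0.29 and -0.22, while Fcgr2b and Fcer1g crossed 0.

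The Fc gamma receptor genes were also set against each other within each sample, as a description chosen after the values were seen and without a test. Fcgr4 minus Fcgr1, in log2 ratios, was 0.46, 0.56 and 0.45 in c-Maf KO replicates 1, 2 and 3, against -0.017, -0.082 and -0.24 in WT replicates 1, 2 and 3. The 3 c-Maf KO values lay close together and apart from WT, although Fcgr4 itself overlapped between the genotypes. By itself, Fcgr1 was already lower in every c-Maf KO sample, and the pairs that hold it share this. How often other pairs of genes on the array lie apart in the same way was not counted. Fcgr1 minus Fcgr2b was -0.29, -0.42 and -0.27 in c-Maf KO, against 0.022, 0.030 and 0.38 in WT, so the activating gene was lower relative to the inhibitory one in each c-Maf KO sample. Fcgr4 minus Fcgr2b was 0.17, 0.14 and 0.19 in c-Maf KO, against 0.0051, -0.052 and 0.15 in WT, with overlap. Fcgr3 minus Fcgr2b was -0.19, 0.036 and -0.050 in c-Maf KO, against 0.13, 0.053 and 0.12 in WT. The c-Maf KO values of that pair all lay below the WT values, by a margin smaller than the spread among the c-Maf KO samples.

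**Figure D4:**
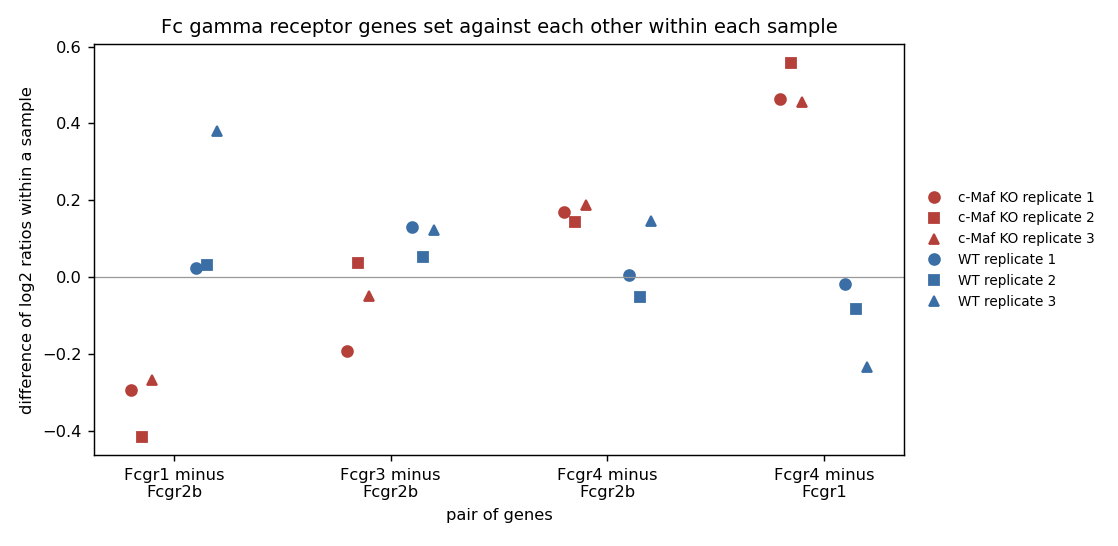
Difference of log2 ratios between 2 genes of the same sample (vertical axis) for 4 pairs of Fc gamma receptor genes (horizontal axis), with c-Maf KO samples in red left of WT samples in blue and shapes for the replicate. Fcgr4 minus Fcgr1 lies at 0.45 to 0.56 in c-Maf KO and at -0.24 to -0.017 in WT.

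The cluster of Fcgr2b, Fcgr3, Fcgr4 and Fcrlb, extended by 100 kb on each side (chr1:172737421-173084188, mm9), held 14 probes, of which 12 were kept and 9 of those belonged to neighbours. The neighbours' differences were 0.10 and 0.17 for the probes of Dusp12, a phosphatase gene, 0.076 and 0.053 for those of Sdhc, a subunit of succinate dehydrogenase, -0.073 and -0.022 for those of Cfap126, -0.033 for AW061147, and -0.32 and 0.65 for those of LOC102638466. None passed the test, and the 2 probes of LOC102638466 disagreed in sign. Fcgr2b, Fcgr4 and Fcgr3 thus lay among neighbours whose probes differed in either direction.

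The genes whose profile over the 6 samples was most like that of Fcgr1, by the root mean square difference of log2 ratios, were Gpr162 (0.089), Cd93 (0.096) and Kif9 (0.10), against a median of 0.337 over the 13176 named genes compared. For Fcrls they were Zfr2 (0.11), Coro2b (0.11) and Cyp2j9 (0.12), against a median of 0.357. These genes were picked as the nearest on the same 6 samples. Distances below the median, and differences near that of the gene matched, follow from that choice. None of these 6 genes passed the test; Cd93, a cell-surface lectin-like protein of myeloid and endothelial cells, differed by -0.44 (adjusted p = 0.256, limma) and Coro2b, an actin-binding protein, by -0.72 (adjusted p = 0.260, limma).

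Genes that act beside the receptors also gave no call: 0 of the kept genes passed the test in any of 5 lists with 6 samples, and likewise 0 with 5 arrays. Of the 11 other Fc and immunoglobulin receptor genes, 5 were kept, all 5 with a difference below 0 (median -0.18) and with overlapping groups. Over all kept probes, 50.9% lay below 0. Fcer1a, 1 of the 5, is also among the markers of mast cells and basophils given below. Among 3 signalling adaptors, Tyrobp differed by -0.030, Hcst by -0.18 and Cd247, which encodes the zeta chain, by 0.52 (adjusted p = 0.400, limma). The groups did not overlap for Cd247 alone (19.4% of all kept probes). Of 23 kinases and effectors downstream of activating receptors, 15 lay below 0 and 8 above (median -0.025), with the groups apart and c-Maf KO lower in 5 and higher in 4 (9.26% and 10.2% of all kept probes). The 2 largest of those differences were those of Fgr, a Src-family kinase, and Vav3, a guanine nucleotide exchange factor.

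Fgr read 0.40, 0.20 and 0.60 in c-Maf KO replicates 1, 2 and 3, against -0.29, -0.30 and -0.20 in WT replicates 1, 2 and 3, a difference of 0.66 (SE 0.11, adjusted p = 0.167, limma). Vav3 read -0.24, -0.18 and -0.11 in c-Maf KO, against 0.17, 0.12 and 0.11 in WT, a difference of -0.30 (SE 0.062, adjusted p = 0.206, limma). Fgr was thus higher, and Vav3 lower, in each c-Maf KO sample than in each WT sample, without passing the test. Of 9 phosphatases and adaptors of inhibitory signalling, 5 lay below 0 and 4 above (median -0.021), and 4 had all c-Maf KO samples below all WT samples (9.26% of all kept probes). With the 5 arrays, 7 of these 9 lay below 0 (53.9% of all kept probes) and 2 above. Those with the largest such differences were Cbl, a ubiquitin ligase, at -0.31 (SE 0.097, adjusted p = 0.314, limma) and Dok2, a docking adaptor, at -0.23 (SE 0.070, adjusted p = 0.306, limma). Syk itself differed by -0.10 and Inpp5d by -0.064 (adjusted p = 0.564 and 0.668, limma).

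The labelled cell type was checked against its markers. All 9 macrophage markers were kept, 8 with a difference below 0 (50.9% of all kept probes). The median over the 9 was -0.088. The groups were apart with c-Maf KO lower in 3 and higher in 1 (9.26% and 10.2% of all kept probes). The summed level of the 9, in multiples of the array's 75th percentile, was 1092 to 1182 in c-Maf KO, against 1146 to 1227 in WT. Markers of other blood cells were kept in part. Of 6 B cell markers 3 were kept (Cd79a, Cd79b and Cr2, with Ms4a1 and Pax5 among those not kept), with a summed level of 0.631 to 0.817 in c-Maf KO, against 0.706 to 0.908 in WT. Of 5 T cell markers 3 were kept (Cd3e, Cd2 and Lck, but not Cd3d and Cd3g), at 4.43 to 5.29 in c-Maf KO, against 4.97 to 5.45 in WT, and of 4 NK cell markers Nkg7 alone, at 6.49 to 7.68 in c-Maf KO, against 7.18 to 7.55 in WT. Of 6 markers of mast cells and basophils, Cpa3, Mcpt8 and Fcer1a were kept and Kit, Hdc and Ms4a2 were not; the summed level was 0.069, 0.38 and 0.059 in c-Maf KO replicates 1, 2 and 3, against 0.15, 0.15 and 0.57 in WT replicates 1, 2 and 3. Cpa3, a mast cell protease, had log2 ratios of -0.81, 2.48 and -1.28 in the c-Maf KO replicates, against 0.81, -1.13 and 2.57 in the WT replicates, so 1 sample of each genotype was high. The tissue label is liver, and of 5 hepatocyte markers Serpina1a and Afp were kept and Alb, Apoa1 and Ttr were not. The summed level was 3.72 to 4.81 in c-Maf KO, against 3.73 to 3.98 in WT. It rose and fell over the samples with Afp and mostly shows that 1 gene. The part of these cell types in the receptor differences was not tested. All 8 markers of fibroblasts and stromal cells had a difference above 0 (median 0.89), none called. Of these markers, 7 of 8 had every c-Maf KO sample above every WT sample (10.2% of all kept probes). Their summed level was 218, 241 and 262 in c-Maf KO replicates 1, 2 and 3, against 182, 105 and 121 in WT replicates 1, 2 and 3, higher in each c-Maf KO sample; their part in the receptor differences was not tested. Of the monocyte markers, 3 of 5 were kept and none was called (median over the 3 of 0.73). Ccr2 (0.73) and Plac8 (0.87) were higher in every c-Maf KO sample (10.2% of all kept probes), and Chil3 (-0.062) overlapped. The summed level was 559 to 603 in c-Maf KO, against 580 to 639 in WT. Bright markers weigh most in a sum, and this one does not show the higher values of Ccr2 and Plac8. Summed neutrophil markers, all 6 kept, lay at 32.6, 42.4 and 29.8 in c-Maf KO replicates 1, 2 and 3, against 38.4, 35.1 and 55.5 in WT replicates 1, 2 and 3. As for Cpa3, c-Maf KO replicate 2 and WT replicate 3 were the highest of their genotypes. The summed markers of dendritic cells, 4 of 5 kept, lay at 179 to 188 in c-Maf KO, against 197 to 211 in WT. That sum rose and fell over the samples with Siglech and mostly shows this 1 gene. Among the 4 kept, Flt3 (-0.43) and Siglech (-0.18) were lower in every c-Maf KO sample (9.26% of all kept probes), while Zbtb46 and Ccr7 overlapped. The part of monocytes, neutrophils and dendritic cells was not tested either.

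The stretches before the gene starts are shown for the 3 genes that were lower in every c-Maf KO sample and for Fcgr3, which was not and which alone in the set holds the long Maf half-site searched for. Each is the 250 bases before the start in RefSeq's GRCm38.p6 annotation, 5′ to 3′ on the gene's strand, which is minus for all 4; all 9 genes were matched by symbol. Capitals mark matches on either strand to the Maf half-site (TGCTGAC), the AP-1 site (TGANTCA) and the core bound by PU.1, the lineage factor of macrophages (GAGGAA; on the other strand it reads TTCCTC). The windows are chr3:87263525-87263774 (Fcrls), chr3:96293970-96294219 (Fcgr1), chr7:45103823-45104072 (Fcgrt) and chr1:171059404-171059653 (Fcgr3, the first of its 2 annotated starts).
Fcrls: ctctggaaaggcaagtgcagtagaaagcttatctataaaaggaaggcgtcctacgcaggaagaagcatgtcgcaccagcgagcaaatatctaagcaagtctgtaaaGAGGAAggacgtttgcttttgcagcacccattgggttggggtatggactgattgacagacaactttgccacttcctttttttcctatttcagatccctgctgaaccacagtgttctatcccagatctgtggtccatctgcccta
Fcgr1: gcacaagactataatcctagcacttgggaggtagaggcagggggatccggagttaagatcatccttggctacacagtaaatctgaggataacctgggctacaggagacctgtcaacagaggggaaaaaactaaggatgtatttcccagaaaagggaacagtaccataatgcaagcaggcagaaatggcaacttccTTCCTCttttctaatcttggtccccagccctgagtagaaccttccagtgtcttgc
Fcgrt: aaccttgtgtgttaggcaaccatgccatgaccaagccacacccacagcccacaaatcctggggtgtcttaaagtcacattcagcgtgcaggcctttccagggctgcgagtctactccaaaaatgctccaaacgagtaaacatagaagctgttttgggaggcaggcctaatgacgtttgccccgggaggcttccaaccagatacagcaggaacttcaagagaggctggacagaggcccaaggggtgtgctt
Fcgr3: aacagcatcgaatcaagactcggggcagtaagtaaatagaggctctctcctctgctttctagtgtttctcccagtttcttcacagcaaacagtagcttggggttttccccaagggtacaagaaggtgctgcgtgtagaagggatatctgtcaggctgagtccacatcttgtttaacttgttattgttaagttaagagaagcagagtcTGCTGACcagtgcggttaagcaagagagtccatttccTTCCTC
The Maf half-site was in 3.81% of 32851 promoters of this length and in 1 of the 9 genes, Fcgr3, at 43 to 37 bases before the start. Its shorter core TGCTGA, which lies inside the half-site and is left in lower case where it stands alone, was in 16.1% of promoters and in Fcgr3 and Fcrls, in Fcrls at 47 to 42 bases before the start. The PU.1 core was in 23.3% of promoters and in 5 of 9 genes (Fcgr1, Fcgr3, Fcgr4, Fcrls and Fcrlb), and the AP-1 letters in 6.75% of promoters and in Fcer2a. None of these motifs was in the window of Fcgrt. The shares count each annotated start by itself, whereas a gene counts if any of its starts holds the motif. A match of letters is no measure of binding.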

How the data were processed

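Gene expression was measured on 1-colour Agilent arrays. The authors extracted spot intensities with Agilent Feature Extraction 10.7.3.1, per the submitters' processing notes; the values used are the processed intensities in the deposited scanner files of 5 arrays. The authors' deposited value table holds linear ratios; it followed the scanner intensities scaled to each array's 75th percentile, with each probe's median over the 6 samples as 1, and has no unused columns. Over the kept probes its columns had median log2 ratios of 0.015, 0.0081 and -0.020 (c-Maf KO replicates 1 to 3) and -0.0030, 0.0048 and -0.0023 (WT replicates 1 to 3). Any floor or filter the authors set is not given in the sources.

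Control and flagged spots were left out (134 to 167 of 59305 non-control spots per array flagged), intensities were divided by the array's 75th percentile (411 to 495), log2 was taken and spots of a probe averaged. No probe was saturated, and 48.9% to 50.5% were well above background. The number of arrays limits the precision. The level of c-Maf KO replicate 1 in summed levels was rebuilt from its ratio and the probe's offset on the 5 arrays. Probes well above background on at least 2 arrays were kept. Differences (c-Maf KO minus WT, in log2) came from limma 3.58.1 (lmFit, eBayes; R 4.3.3) over all 28273 kept probes, tested on simulated data, with Benjamini-Hochberg adjusted p under 0.05. Names were updated through RefSeq accessions (28026 probes). All arrays lay on 1 slide. WT replicates 1 and 3 share a file name tag; their log2 differences had an SD of 0.321, against 0.319 and 0.327 for the other WT pairs, and they were kept apart.

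The members, gene lists, markers and motifs were chosen with earlier results of these data known. Named genes were all members, Maf, per list the called genes or otherwise the 2 largest differences among genes whose groups do not overlap, neighbours in the cluster, and the 3 genes most like Fcgr1 and Fcrls; Tyrobp, Hcst, Syk, Inpp5d and Cpa3 were chosen after their values were seen. Alternatives were other background corrections, normalizations, filters and variance models (statmod 1.5.0), 1 probe per gene, a replicate block, averaging WT replicates 1 and 3, and leaving out each sample. Some markers and motifs are not reported here.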

Additional observations from a re-analysis of the deposited data

How the results depend on the processing

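The receptor genes called were 0 under every alternative in both fits. Of 189 refitted receptor differences 183 kept their direction, and the lowest adjusted p was 0.0987 (Fcgrt, 5 arrays, trend and robust variances, limma). Part of the count of kept directions was fixed in advance. The filters, 1 probe per gene and the variance models leave a probe's difference as it was, as does the replicate block with 6 samples. Leaving c-Maf KO replicate 1 out of the 6 samples nearly repeats the 5 arrays. The difference of Fcer1g in the 5 arrays turned to 0.0032 with normexp. With 1 sample left out, differences ran from -0.24 to 0.031 for Fcgr2b, from -0.13 to 0.18 for Fcgr4 and from -0.30 to -0.12 for Fcgr3 (5 arrays), and from -0.10 to 0.16 for Fcgr2b, from -0.033 to 0.062 for Fcer1g, from 0.031 to 0.30 for Fcgr4 and from -0.21 to -0.064 for Fcgr3 (6 samples).

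The number of calls over all probes was unstable. With 5 arrays it was 7, against 22 with normexp, 1 where probes had to be well above background on all 5 arrays, 123 with trend and robust variances, 2 with WT replicates 1 and 3 averaged, and 2 to 18 with 1 sample left out. With 6 samples it was 6, against 2 without a filter, 50 with trend and robust variances, 2 with those WT replicates averaged, and 2 to 31 with 1 sample left out, the most without WT replicate 1. The cause was not tested.

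Whether the replicate numbers pair the samples was not settled. Same-numbered deviations correlated at -0.0043, -0.044 and 0.081, against -0.070 to 0.075 for samples with unlike numbers. With a replicate block the calls were 0 (5 arrays) and 7 (6 samples). The call of the brighter Maf probe was kept in all 13 alternatives with 6 samples and in 9 of 14 with 5 arrays. The other 5 were the block, the averaged WT replicates and each WT replicate left out. In those 5 the difference stayed at -4.15 to -4.10 and the adjusted p was 0.121 to 0.268 (limma).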
